A study of Glycine max with 34 samples.

Results

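MFT (mother of FT and TFL1) is read on the Affymetrix Soybean Genome Array by 1 probe set, the single one of 37593 soybean probe sets that the gene table ties to that symbol, and it is 1 of 6029 genes with a probe set of their own. MFT was chosen by its signal in the aleurone relative to the coat layers and embryo of these same arrays, so the aleurone comparisons below describe the choice and carry no test. NCBI lists the gene as protein coding under identifier 100306314, with the synonyms CETS1, GmMFT and MFTL. MFT belongs to the phosphatidylethanolamine-binding protein family, whose best known members, FT and TFL1, promote and delay flowering. In Arabidopsis, MFT is expressed in seeds, is controlled by abscisic acid through ABI3 and ABI5 and by the DELLA repressors of gibberellin signalling, and regulates germination. In wheat it promotes grain dormancy. The aleurone is a living layer of the endosperm, a product of fertilization that lines the inner face of the coat in the soybean seed, while the palisade and hourglass layers, coat parenchyma and hilum are maternal tissue.

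The samples were seeds of the soybean cultivar Asgrow A3237 with a length of 6.0 to 7.0 mm, at the early maturation stage, from plants kept at 22 °C under 16 h of light and 8 h of dark. Seeds were fixed, embedded in paraffin and cut into sections of 8 microns, from which a laser isolated 16 compartments, and whole seeds were ground as a 17th group. The seed coat gave the aleurone, palisade layer, hourglass layer, parenchyma and hilum. The cotyledon gave its vascular bundle, and its epidermis and parenchyma on the abaxial and on the adaxial face, and the embryonic axis gave its vascular bundle, epidermis, parenchyma, plumule, root meristem and shoot meristem. All groups share the cultivar, stage and growth conditions, and none carries a treatment or mutation. Each group has 2 biological replicates, 1 array each and 34 arrays in all. The RNA input was 2 ng per sample, and the RNA was amplified. How many seeds form a replicate, and whether compartments were cut from the same seeds, is not stated, so p-values measure the spread between these samples.

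On each array the background was taken as the 95th percentile of the probe sets for Phytophthora sojae and Heterodera glycines, organisms that are also on the array, and it ran from 104.3 to 263.9 with a median of 170.2. The replicates of a group correlated across probe sets, which are not independent units, with Pearson's r between 0.870 and 0.956. The hybridization controls, bacterial and phage transcripts added to each sample, were unequal between groups. Relative to the median array they stood at 0.307 to 0.356 in the whole seed and at 3.24 to 3.33 in the axis epidermis. In the aleurone they stood at 2.30 in replicate 1 and 0.834 in replicate 2. The precision is limited by having 2 arrays a group.

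MFT was detected in the aleurone and throughout the embryo, and lay at or near the background in the maternal layers of the coat. Its signal exceeded the background on 27 of 34 arrays, namely on both aleurone arrays, both whole seed arrays, 21 of 22 embryo arrays and 2 of 8 maternal coat arrays. Against the 99th percentile it did so on 26 arrays. In bulk samples, fewer cells that express a gene and less of its RNA per cell cannot be told apart.

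In the aleurone the MFT signal was 10193.6 and 14904.6 on the 2 arrays, a mean of 12550 ± 3331 (SD, n = 2). It was 116.7 and 453.1 in the hourglass layer, 254.5 and 138.8 in the hilum, 84.4 and 71.6 in the palisade layer and 106.1 and 48.1 in the coat parenchyma. Both aleurone arrays lay above all 8 maternal arrays. Of those 8, hourglass replicate 2 and hilum replicate 1 alone were above their own background, at 2.99 and 1.47 times its level. The log2 difference of the aleurone from the mean of the 4 maternal layers was 6.43, on the scale of log2 of the signal plus 16. Because most maternal signals lay below the background, the fold was computed with those signals raised to it and is a lower bound: the aleurone was at least 62.5-fold higher. Layer by layer the bound was at least 40.3-fold against the hourglass layer, 52.7-fold against the hilum, 82.9-fold against the palisade layer and 86.8-fold against the coat parenchyma.

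**Figure D1:**
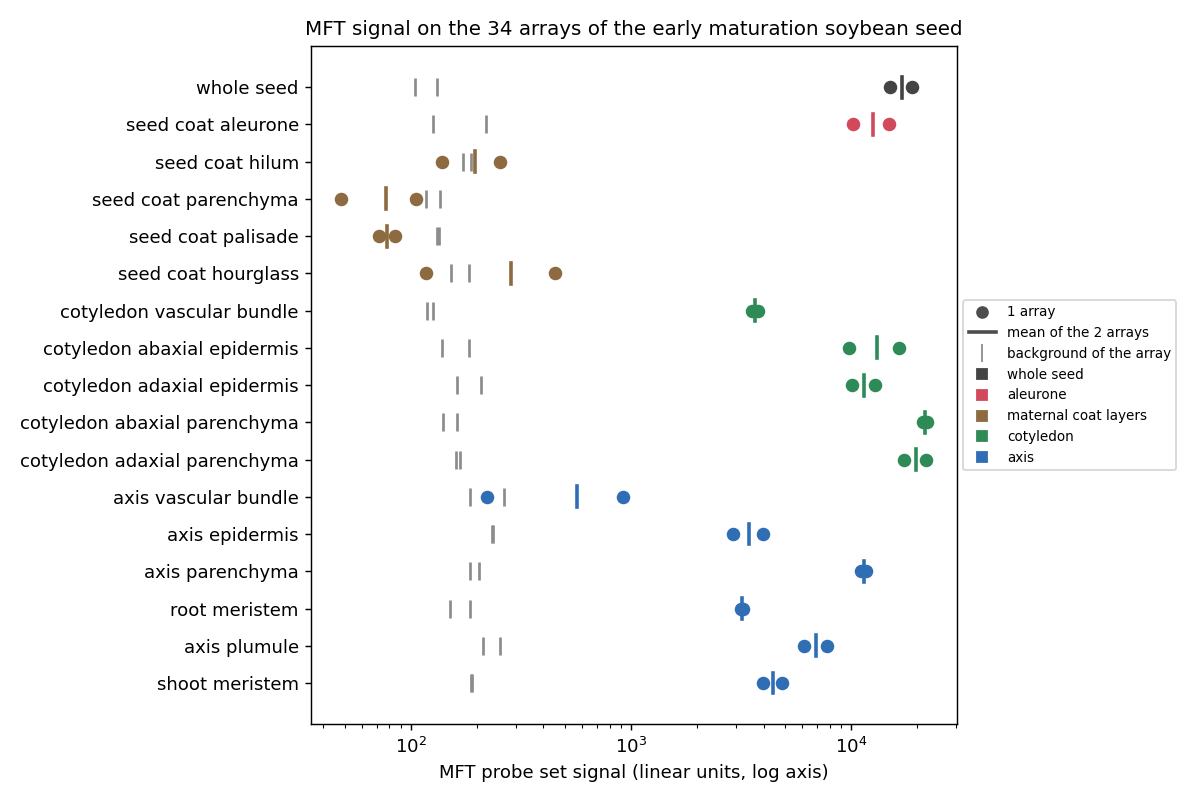
Signal of the MFT probe set on each of the 34 arrays (points, log axis) by group, with the mean of the 2 arrays (coloured bar) and the background of each array (grey tick). Aleurone arrays sit at 10193.6 and 14904.6, far to the right of all 8 maternal coat arrays and inside the range of the embryo arrays.

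Against the embryo the aleurone did not stand out in the same way. The 22 embryo arrays ran from 222.3 to 22195.3 with a median of 6931. The aleurone exceeded the mean of the 11 embryo compartments by 1.03 on the log2 scale (2.04-fold), with a mean signal of 12550 in the aleurone and 9055 over the embryo. Of the 11 embryo compartments, 6 had both arrays below both aleurone arrays, 3 overlapped with the aleurone and 2 had both arrays above it. The working description of MFT as rich in the aleurone therefore holds in these arrays relative to the maternal coat, and the aleurone is in the 5th place of 17 groups by mean log2 signal.

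The 2 compartments above the aleurone were the storage parenchymas of the cotyledon. The abaxial parenchyma gave 21300.3 and 22195.3 and the adaxial parenchyma 17362.2 and 21907.0, so the aleurone lay below them by -0.82 and -0.66 on the log2 scale. The 3 that overlapped with the aleurone were the cotyledon abaxial epidermis (16414.0 and 9822.3), the cotyledon adaxial epidermis (12819.3 and 10120.7) and the axis parenchyma (11136.5 and 11711.7). From these the aleurone differed by -0.04, 0.11 and 0.11. The remaining 6 were the plumule, both meristems, the axis epidermis and the vascular bundles of axis and cotyledon. The aleurone was 0.84 above the plumule (1.79-fold), 1.48 above the shoot meristem (2.79-fold), 1.75 above the cotyledon vascular bundle (3.36-fold), 1.86 above the axis epidermis (3.63-fold) and 1.94 above the root meristem (3.83-fold). The widest gap to an embryo compartment was to the axis vascular bundle (222.3 and 918.6), 4.71 on the log2 scale, with 1 of those 2 arrays below its background.

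In the order of group means, the cotyledon abaxial parenchyma came first and was followed by the adaxial parenchyma, whole seed, cotyledon abaxial epidermis, aleurone, axis parenchyma and cotyledon adaxial epidermis. In this upper series each group overlapped with the next one down on its arrays. Below it the plumule (7765.9 and 6096.4), the shoot meristem (4860.8 and 3985.8) and the cotyledon vascular bundle (3790.2 and 3530.8) were each separate from the group above. The cotyledon vascular bundle, the axis epidermis (3958.8 and 2893.7) and the root meristem (3174.0 and 3231.0) then overlapped in turn. Between the root meristem and the axis vascular bundle lay the widest step of the order, 2.77 on the log2 scale. The axis vascular bundle, hourglass layer and hilum overlapped in turn, as did the palisade layer and coat parenchyma at the bottom.

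Comparisons within the embryo and within the maternal coat were tested with limma, and a contrast was called at a log2 difference of at least 1 and a p under 0.05 after Benjamini-Hochberg adjustment over 28441 soybean probe sets.

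Within the axis MFT was lower in the conducting and surface tissues than in the parenchyma. The axis vascular bundle gave 222.3 and 918.6, against 11136.5 and 11711.7 in the axis parenchyma. The vascular arrays were unlike each other, since replicate 1 lay below its background of 263.9 and replicate 2 at 4.94 times its background, but both were far below the parenchyma. The difference was -4.60 ± 0.49 (log2, SE; 95% interval -5.60 to -3.60; limma adjusted p = 3.22e-07), in a contrast where 7.22% of probe sets were called. It was the 43rd largest drop among the 28441. With 1 of the 2 vascular arrays left out it ran from -5.58 to -3.61 and was called each time. The hybridization controls of these arrays stood at 2.71 (replicate 1) and 1.14 (replicate 2) times the median, and their part in the gap between the replicates was not tested.

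The axis epidermis gave 3958.8 and 2893.7, also below both parenchyma arrays. The difference from the parenchyma was -1.75 ± 0.49 (3.36-fold lower; 95% interval -2.75 to -0.75; limma adjusted p = 0.0236), where 7.61% of probe sets were called. This call ended with the control level added as a covariate (-0.89, adjusted p = 0.363) and with axis epidermis replicate 2 (-1.52), axis parenchyma replicate 1 (-1.79) or axis parenchyma replicate 2 (-1.71) left out, at adjusted p = 0.1 to 0.121.

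On their arrays the meristems and plumule of the axis lay below the axis parenchyma and above the axis vascular bundle. The root meristem overlapped with the axis epidermis. The root meristem had 3174.0 and 3231.0 and the shoot meristem 4860.8 and 3985.8, with no overlap. That difference of -0.46 ± 0.49 did not pass (95% interval -1.46 to 0.54; limma adjusted p = 0.688; 7.46% of probe sets called). In the plumule, which holds the first leaves, the signal was 7765.9 and 6096.4, above both shoot meristem arrays. The plumule differed from the shoot meristem by 0.64 ± 0.49, which also did not pass (95% interval -0.36 to 1.64; limma adjusted p = 0.533; 5.2% called).

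**Figure D2:**
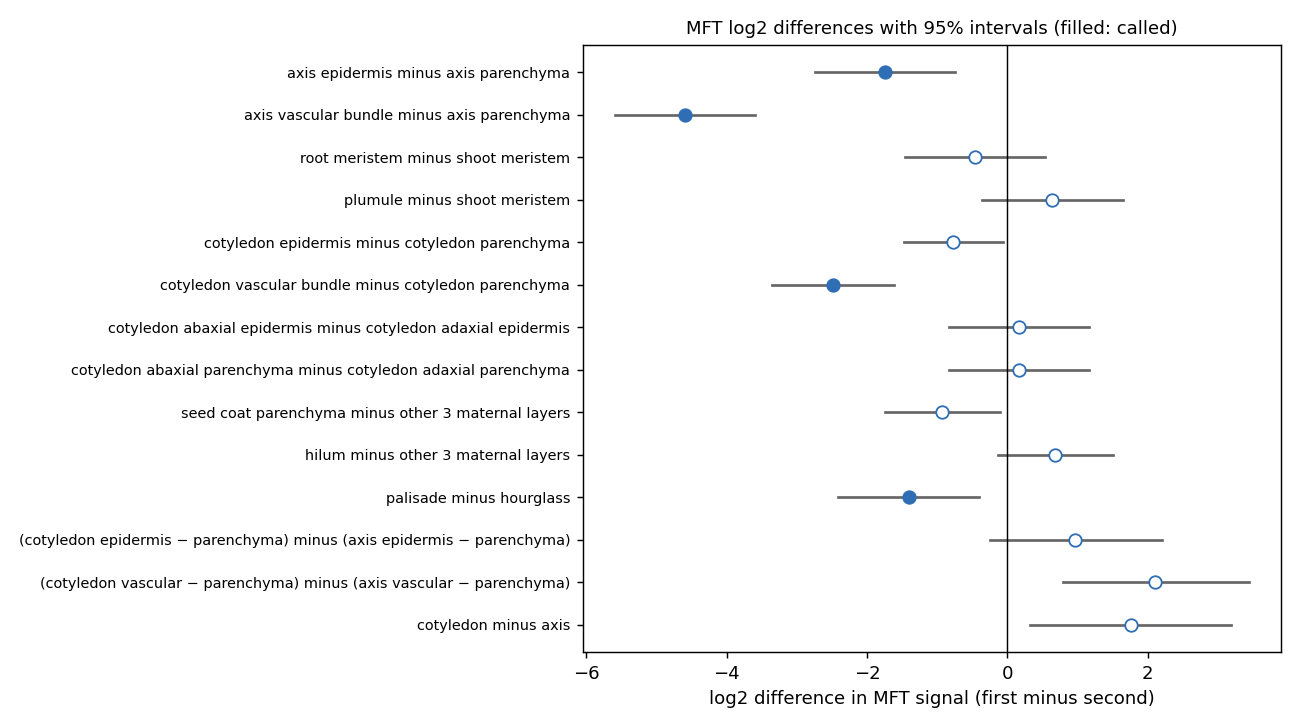
Log2 differences in MFT signal for 14 contrasts (points, first group minus second) with 95% intervals from limma (lines); filled points were called. The axis vascular bundle (-4.60) and cotyledon vascular bundle (-2.49) stand furthest to the left of 0.

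The cotyledon showed its lowest MFT signal in the vascular bundle as well. There the arrays gave 3790.2 and 3530.8, against 17362.2 to 22195.3 on the 4 arrays of the cotyledon parenchyma. The 2 sets of arrays were widely separate. The cotyledon vascular bundle was lower by -2.49 ± 0.42 (5.61-fold; 95% interval -3.35 to -1.62; limma adjusted p = 0.000107), with 10.7% of probe sets called, and this was the 265th largest drop among the 28441. Leaving out any 1 array kept the value between -2.57 and -2.40. The drop in the axis vascular bundle had the larger size, and the difference between the 2 drops was 2.11 ± 0.64 (95% interval 0.79 to 3.44), which did not pass (limma adjusted p = 0.0785; 3.04% of probe sets called). It passed without axis vascular bundle replicate 2 (3.10, adjusted p = 0.00299) and, with the value unchanged, without either hourglass array (2.11, adjusted p = 0.0334 and 0.0336).

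The cotyledon epidermis ran from 9822.3 to 16414.0 on 4 arrays, all below the 4 parenchyma arrays. Averaged over both faces the epidermis was lower by -0.78 ± 0.34 (95% interval -1.48 to -0.07), without passing (limma adjusted p = 0.139; 11.9% called). The epidermal drop was smaller in the cotyledon than in the axis by 0.97 ± 0.60, again without passing (95% interval -0.25 to 2.20; limma adjusted p = 0.464; 3.35% called). The 2 faces of the cotyledon overlapped in both tissues. The abaxial epidermis differed from the adaxial epidermis by 0.16 (limma adjusted p = 0.943; 3.52% called) and the abaxial parenchyma from the adaxial parenchyma by 0.16 (limma adjusted p = 1; 1.02% called). Both 95% intervals ran from -0.84 to 1.16. The epidermal value changed sign without abaxial epidermis replicate 1 (-0.21) or adaxial epidermis replicate 2 (-0.01), and the parenchymal value without adaxial parenchyma replicate 1 (-0.01).

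As whole organs, the cotyledon had a mean MFT signal of 13930 over its 5 compartments and the axis 4996 over its 6. The array ranges overlapped, from 3530.8 to 22195.3 in the cotyledon and from 222.3 to 11711.7 in the axis. With compartments as the units the difference was 1.76 ± 0.67 (95% interval 0.32 to 3.19), which did not pass (limma adjusted p = 0.177; 1.93% of probe sets called). It passed with arrays as units and the compartment as a random block (adjusted p = 0.0442). The maternal layers averaged 159.2 and the embryo 9055, a log2 difference of -5.40 that is given without a test because both levels belong to the comparisons that chose the gene.

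Differences among the maternal layers were differences near the background. The coat parenchyma, where MFT lay below the background on both arrays, differed from the mean of the other 3 layers by -0.93 ± 0.40 (limma adjusted p = 0.119; 14.8% called). The hilum differed from the mean of the other 3 by 0.68 ± 0.40 (limma adjusted p = 0.287; 12.6% called). The palisade layer was called lower than the hourglass layer (-1.41 ± 0.49, at least 1.68-fold; limma adjusted p = 0.0344; 22.2% called), but only hourglass replicate 2 of these 4 arrays was above its background. Without that array the difference was -0.50 (adjusted p = 0.596), and it also lost the call without palisade replicate 1 (-1.51, adjusted p = 0.0984) or palisade replicate 2 (-1.31, adjusted p = 0.152). Without hourglass replicate 1 the coat parenchyma was called lower (-1.23, adjusted p = 0.017).

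The ground whole seed gave an MFT signal of 15081.6 and 18881.3, a mean of 16980 ± 2687 (SD, n = 2). Among compartments it was exceeded in mean log2 signal by the 2 cotyledon parenchymas alone, and it overlapped with the adaxial parenchyma and the abaxial epidermis. It lay 2.76 above the unweighted mean of the 16 compartments on the log2 scale. That log2 mean is lowered by the maternal layers near the background, and the mean signal over the compartments was 7050. The difference is given without a test because the compartment mean holds the aleurone, coat and embryo levels by which MFT was chosen. The whole seed was ground and extracted with another reagent, and its controls were the dimmest of all groups. With the control level as a covariate the difference was 1.48.

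Because the aleurone lies against the embryo in the seed, markers of embryo storage cells were read on the same arrays. Of 14 storage genes 10 were measured (GY1, GY2, GY3, GY5, CG-1, GM2S-1, KTI3, P34, LOX1.1 and LOX3), which encode storage globulins, a 2S albumin, a trypsin inhibitor, a papain-like protein and lipoxygenases. Their summed signal was 18960.4 and 19899.9 in the aleurone, against 20120.0 and 22360.7 in the axis vascular bundle, 65813.2 to 349214.1 in the other 10 embryo compartments and 659.1 to 4152.9 on 7 of the 8 other coat arrays. The aleurone sum is mostly LOX3, at 9755.8 and 13366.4, and all 10 genes were above the background on at least 1 aleurone array. The eighth coat array was hourglass replicate 2, with 23210.8, and it was also the maternal array with the highest MFT signal, 453.1. Relative to the cotyledon abaxial epidermis, the aleurone had 0.141 of the storage sum and 0.957 of the MFT signal. Relative to the axis vascular bundle it had 0.915 of the storage sum and 22.0 times the MFT signal. The aleurone sums were alike on the 2 arrays, but single genes differed in both directions. GY2 gave 2654.1 and 709.1, P34 2449.4 and 818.9, and GM2S-1 704.2 and 4185.2.

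Markers of other coat cells were read in the same way. The summed signal of 3 MADS-box genes of the coat (AGL1L, SEP1 and MADS28) was 9288.9 and 6944.9 in the aleurone, 21670.9 to 32038.9 in the other coat layers and 73.8 to 533.2 on the embryo arrays. Ep, the peroxidase gene of the hourglass layer, gave 2425.6 and 2398.0 in the aleurone, against 38705.9 to 40376.2 in the hourglass layer, 22405.0 to 26007.3 in the coat parenchyma and 1309.5 to 2648.8 in the palisade layer. The summed signal of 8 genes listed for phloem (SUT1 and 7 of the SEO family) was 1721.4 and 2035.8 in the aleurone. It was 16277.7 to 17718.0 in the coat parenchyma and 488.0 to 1381.4 in the other 3 maternal layers. Among these genes SEOE gave 725.8 and 899.8 in the aleurone and 1585.2 and 1514.1 in the coat parenchyma. SEOE lay below the background in the other maternal layers and in all embryo compartments. SUT1 ran otherwise, with 537.4 and 660.3 in the aleurone and 231.7 and 206.9 in the coat parenchyma. Its highest signals were in the cotyledon abaxial epidermis (30441.3 and 40789.9) and the axis epidermis (22008.0 and 21543.8). The sum is therefore not specific to phloem, and it was 1392.6 to 2313.9 in the embryo vascular bundles. No defining marker of the aleurone was fixed, and MFT, which was higher in the cotyledon parenchyma, is not one. The label of the aleurone samples was therefore not checked by a gene of its own. The part of embryo or maternal cells in the aleurone MFT signal was not tested, and the sums and ratios are a description.

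**Figure D3:**
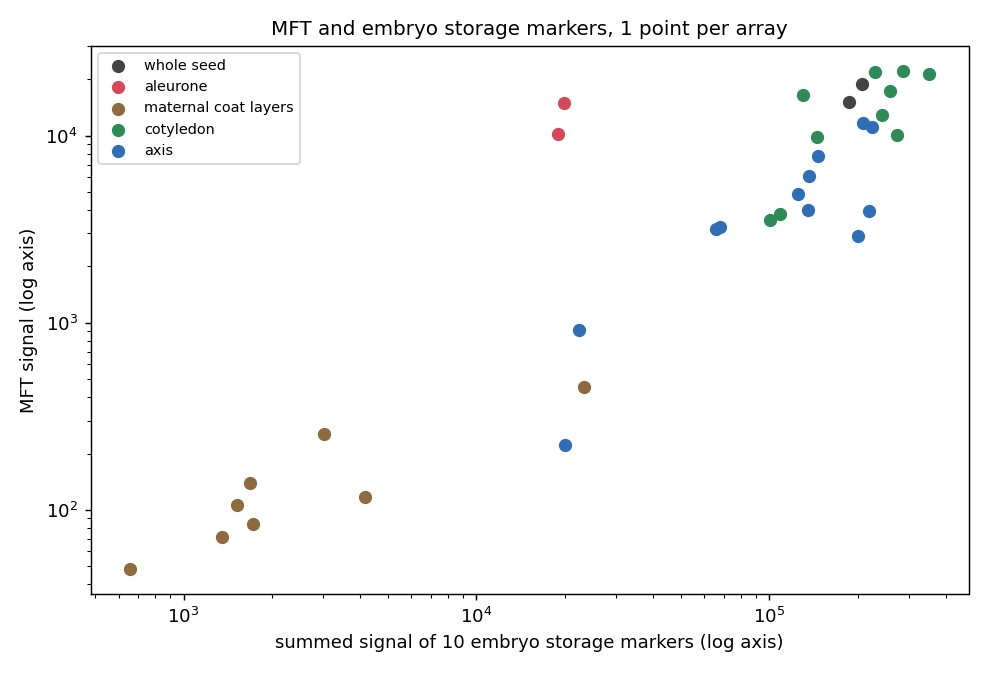
MFT signal against the summed signal of 10 embryo storage markers, 1 point per array, both on log axes. The 2 aleurone arrays (storage sums 18960.4 and 19899.9) lie above the axis vascular bundle arrays at like storage sums, and 1 hourglass array lies to the right of the other maternal arrays in both measures.

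To place MFT among named genes, its log2 signal was correlated with that of 886 other genes over the 16 compartment means. The points share arrays and scaling, so r is a description. The median r over 28440 probe sets was 0.032. The 10 highest named genes were SACPD-C (r = 0.925), a stearoyl desaturase gene of oil synthesis, VPE (0.908), a vacuolar processing enzyme gene, LOX3 (0.893), a lipoxygenase gene, CP3 (0.892), the seed maturation gene PM30 (0.870), CG-1 (0.870), a beta-conglycinin storage protein gene, IF7MaT (0.866), an isoflavone malonyltransferase gene, the transcription factor gene BZIP70 (0.843), PM12 (0.843) and SNRK1 (0.834), which carries the name of an energy-sensing kinase. LOX3 and CG-1 are also among the storage markers above, and LOX3, CP3, PM30, IF7MaT and BZIP70 are on probe sets that may bind near-identical copies. At or above the r of the tenth gene were 64 probe sets, 52 of them without a named gene. By Spearman's rho, or without the aleurone, 5 of the 10 were again among the first 10. Over the 10 genes rho ran from 0.306 (PM12) to 0.835 (VPE), with 0.468 for PM30 and 0.562 for BZIP70. PM12 shared the low coat signal but not the embryo pattern. It gave 96708.7 and 54674.2 in the axis vascular bundle, above its 38005.3 and 31586.1 in the cotyledon abaxial parenchyma, the reverse of MFT.

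SACPD-C, the gene with the highest r, shows where its own likeness to MFT ended. It gave 7602.9 and 9976.0 in the aleurone, 34415.5 and 33532.0 in the cotyledon abaxial parenchyma and 181.2 and 192.1 in the palisade layer, high in the cotyledon and low in the coat, as MFT was. In the axis vascular bundle, however, SACPD-C gave 4917.9 and 4413.3, well above the background, where MFT was near it. CG-1 was low there as MFT was, at 214.9 and 548.0, with 1 array above the background. Against the axis parenchyma CG-1 differed by -4.01 ± 0.54 in that bundle. Of the 10 genes, 6 were called lower in this contrast, where 7.22% of all probe sets were called, and the others were not called. The r that chose the 10 genes takes in both of these compartments. The count therefore follows in part from that choice and is only a description. In all 10 genes the aleurone lay below the mean of the 11 embryo compartments. Of them 5 were called lower, where 11.8% of all probe sets were. The log2 differences ran from -3.88 (CG-1) to -0.08 (SNRK1). For MFT the aleurone lay 1.03 above that mean, but MFT was chosen by its aleurone level and the 10 genes by their r to MFT. Against the 4 maternal layers the 10 genes stood higher in the aleurone, by between 0.95 (SNRK1, not called) and 7.58 (PM12). Their r to MFT takes in the aleurone and these 4 layers, so this direction follows largely from the choice.

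**Figure D4:**
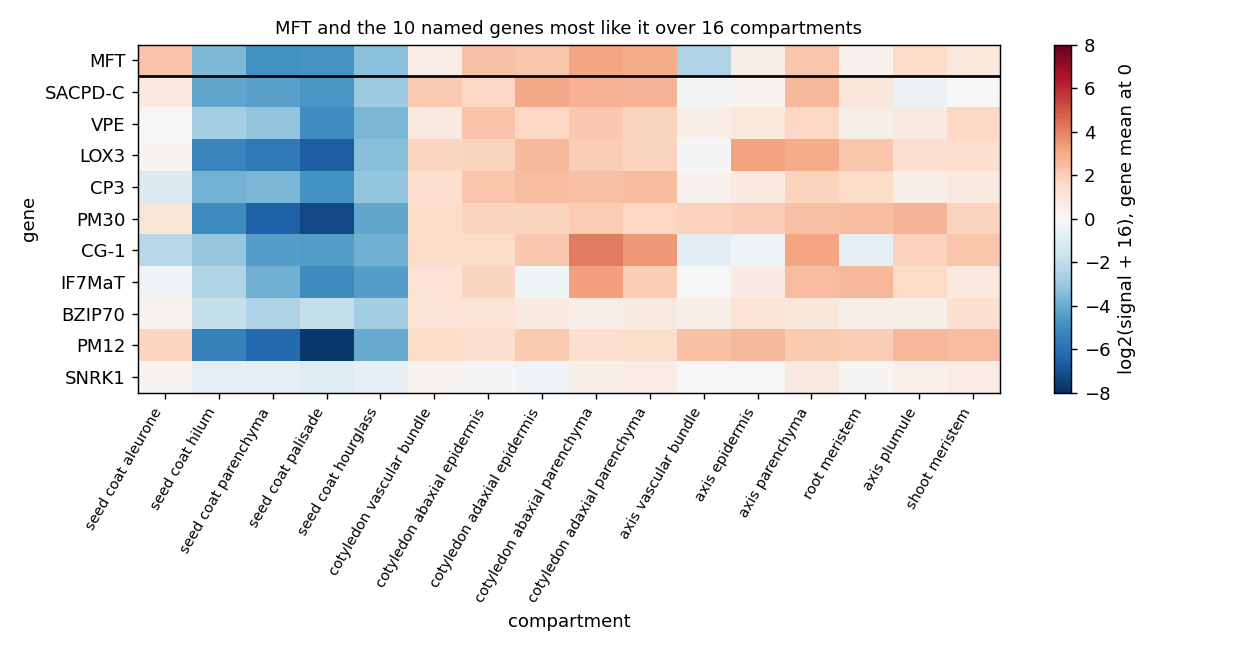
Heat map of log2(signal + 16) for MFT and the 10 named genes with the highest r to it, each centred on its own mean over the 16 compartments (columns). All rows are blue in the 4 maternal coat layers. In the axis vascular bundle the MFT row is below its mean as well, as are the CG-1 row and, more slightly, some others.

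Genes of hormone pathways, seed maturation and a few regulatory families were read from lists by symbol, 112 genes in all, of which 100 were tested. In the aleurone relative to the 4 maternal layers 29 were called higher and 18 lower, where 10.8% and 11% of all probe sets were. Relative to the 11 embryo compartments 12 were higher and 27 lower, where 11.1% and 11.8% of all probe sets were. Without aleurone replicate 2 the lower counts were 11 and 17. Lists were chosen with results of these arrays known, and both contrasts share the aleurone arrays, so each count is given as a description. Each contrast is with a mean over compartments, and single compartments can lie on the other side of the aleurone.

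Of the other members of the MFT family, FT1A was not above the background on enough arrays to be tested. BFT, whose namesake in Arabidopsis delays flowering, gave 123.9 and 82.4 in the aleurone, below the background on both arrays. It was likewise below the background on all 8 maternal arrays and on 19 of 22 embryo arrays, and no fold is given. BFT was called in neither contrast (0.93, limma adjusted p = 0.338 against the maternal layers, and 0.29, adjusted p = 0.787 against the embryo).

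Gibberellin, which promotes germination, is removed by gibberellin 2-oxidases, and a gene of that class had the largest aleurone difference from the embryo among the listed genes. GA2OX6 gave 4182.7 and 4199.8 in the aleurone, 2067.1 and 1799.3 in the coat parenchyma, 209.6 at most in the other 3 maternal layers and 57.1 at most in the embryo, where all 22 arrays were below the background. It was at least 21.4-fold higher in the aleurone than in the embryo (limma adjusted p = 2.92e-10) and higher than in the mean of the 4 maternal layers by 4.88 ± 0.64 (adjusted p = 1.45e-06), with 5 of 8 maternal arrays below the background and mean signals of 4191 in the aleurone and 534.3 in the maternal layers. The ground whole seed gave 565.2 and 504.1. Both GA2OX6 and MFT were thus bright in the aleurone, but GA2OX6 was below the background in the embryo, where MFT was high.

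The other gibberellin genes differed less. GAI1, which carries the name of a DELLA repressor of gibberellin signalling, gave 2954.9 and 5140.1 in the aleurone, against 427.2 to 5368.0 in the maternal layers, and was higher by 1.56 ± 0.27 (limma adjusted p = 8.41e-05). The coat parenchyma (5061.8 and 5368.0) reached the upper aleurone array. Against the embryo GAI1 stood at -0.31 ± 0.26 (adjusted p = 0.416). GA20OX3, of the gibberellin synthesis class, was called lower than in the embryo (at least 1.28-fold; adjusted p = 0.00504) with both aleurone arrays below the background, and lost the call without aleurone replicate 2 (-0.84, adjusted p = 0.266). GA2OX8 and GAI2 were not called in either contrast.

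**Figure D5:**
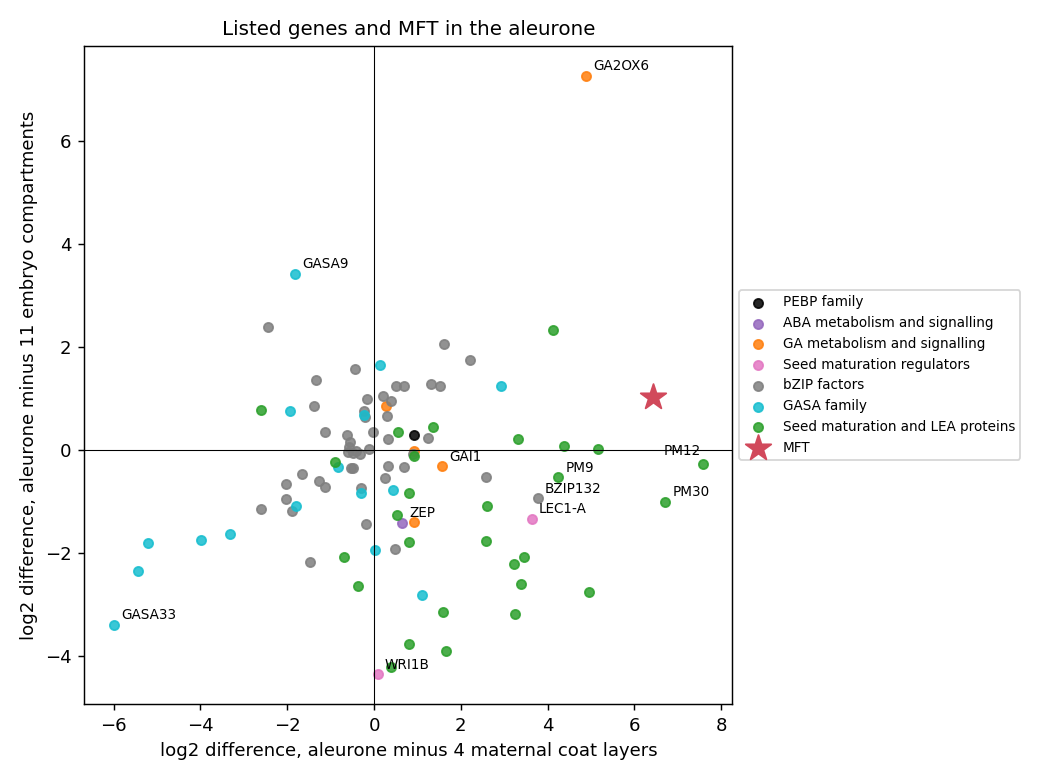
Log2 difference of the aleurone from the mean of 4 maternal coat layers (horizontal) and from the mean of 11 embryo compartments (vertical) for 100 listed genes and MFT (star), coloured by list. MFT stands at 6.43 and 1.03, GA2OX6 at 4.88 and 7.27, and PM12 and PM30 at 7.58 and 6.71 on the horizontal axis with values below 0 on the vertical one.

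Abscisic acid, which promotes maturation and dormancy, was represented by 1 gene. ZEP, of the zeaxanthin epoxidase class that makes its precursors, gave 423.6 and 606.6 in the aleurone, against 202.8 to 4173.0 with a median of 1453 in the embryo. It was lower there by -1.41 ± 0.35 (2.65-fold; limma adjusted p = 0.00264), and lost the call without aleurone replicate 1 (-1.16, adjusted p = 0.0963). From the maternal layers ZEP differed by 0.65 ± 0.37, which did not pass (adjusted p = 0.211).

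Both regulators of seed maturation in the list were lower in the aleurone than in the embryo. LEC1-A, named for a master regulator of embryo maturation, gave 1226.0 and 952.6 in the aleurone, against 15.2 to 197.2 in the maternal layers and 97.7 to 8677.8 in the embryo. It was at least 6.36-fold higher than in the maternal layers (limma adjusted p = 1.42e-08) and lower than in the embryo by -1.33 ± 0.34 (2.51-fold; adjusted p = 0.00329), a call that ended without aleurone replicate 2 (-1.15, adjusted p = 0.0936). WRI1B, named for an activator of oil synthesis genes, was below the background in the aleurone (47.5 and 101.6) and at least 9.64-fold lower than in the embryo (adjusted p = 2.59e-10).

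Seed maturation and LEA protein genes, whose products accumulate as seeds prepare to dry, divided by the tissue that the aleurone was set against. Relative to the maternal layers 17 of 28 were higher, 1 was lower and 10 did not pass. Of all probe sets tested, 10.8% were higher and 11% lower. The median was 2.12, against 0.06 over all probe sets tested. PM12 gave 56323.6 and 39909.7 in the aleurone, against 9.3 to 2146.7 in the maternal layers (7.58 ± 0.83; limma adjusted p = 7.42e-08), with 3 of the 8 maternal arrays below the background. PM30 was at least 66.6-fold higher (adjusted p = 1.96e-11), PM32 at least 15.8-fold (2.12e-10) and PM29 at least 5.68-fold (adjusted p = 3e-10). Relative to the embryo 1 of the 28 was higher, 13 were lower and 14 did not pass, with a median of -1.17 against 0.01. In that contrast 11.1% of all probe sets tested were higher and 11.8% lower. PM16 was at least 17.8-fold lower, LEA5 at least 12.5-fold, PGMPM19 at least 10.5-fold and PM34 was lower by -3.17 ± 0.39 (limma adjusted p = 2.82e-08, 1.74e-08, 3.36e-07 and 3.34e-07).

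Among the bZIP transcription factors, a class that includes the abscisic acid regulator ABI5, 47 of 58 were tested. Relative to the maternal layers 7 were higher and 9 lower (median -0.22), and relative to the embryo 7 were higher and 4 lower (median 0.03). Over all probe sets the shares higher and lower were 10.8% and 11% against the maternal layers (median 0.06). They were 11.1% and 11.8% against the embryo (median 0.01). BZIP132 gave 4627.2 and 5735.8 in the aleurone, against 4.6 to 486.9 in 3 maternal layers and 7188.6 and 6074.1 in the hilum, which lay above the aleurone (3.77 ± 0.38 from the mean of the 4; limma adjusted p = 2.36e-08). BZIP70 was higher by 2.57 ± 0.23, BZIP125 was lower by at least 3.90-fold and BZIP62 differed by -2.45 ± 0.55, a call that ended without aleurone replicate 2 (-1.75, adjusted p = 0.0971). Relative to the embryo BZIP10 was higher by 2.07 ± 0.34, while BZIP110 and BZIP46 were lower by at least 3.32-fold and 2.81-fold. BZIP62 gave 2193.0 and 822.8 in the aleurone, against 8420.7 and 9946.2 in the cotyledon vascular bundle and 3.0 to 1772.5 in the other 10 embryo compartments. It was called higher than the embryo mean (2.40 ± 0.51, with 12 of 22 embryo arrays below the background; limma adjusted p = 0.000633), and lost that call without aleurone replicate 1 (1.71, adjusted p = 0.0888).

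The GASA genes, small cysteine-rich peptides that gibberellin regulates, were called lower in the aleurone more often than higher. Of 16, 2 were higher and 8 lower than in the maternal layers (median -1.31), and 3 were higher and 6 lower than in the embryo (median -0.95). Of all probe sets, 10.8% were higher and 11% lower than in the maternal layers (median 0.06). Against the embryo these shares were 11.1% and 11.8% (median 0.01). GASA33 gave 65.1 and 5.7 in the aleurone, against 713.4 to 13323.9 in the maternal layers, and was at least 14.8-fold lower (limma adjusted p = 6.68e-13). GASA14 was lower by -5.44 ± 0.36 (43.5-fold), GASA22 by -3.98 ± 0.38 (15.7-fold) and GASA6 by at least 4.33-fold. GASA9 gave 6819.9 and 6191.7 in the aleurone, against 260.3 to 1400.9 in the embryo (3.43 ± 0.26, 10.8-fold; adjusted p = 6.02e-11). Lower than in the embryo were also GASA33 (at least 2.40-fold), GASA12 (at least 6.83-fold) and GASA14 (5.10-fold). GASA14 and GASA33 are on probe sets that may bind near-identical copies.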

How the data were processed

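The authors deposited 1 intensity per probe set and array on a linear scale, made with GCOS 1.3 per the submitters' processing notes. Its algorithm is not given in the sources used. Each array had a trimmed mean of 500.1 (2% of probe sets trimmed at each end), so signals were used as deposited. Probe sets were named from the platform annotation and the gene table of RefSeq, and no genome positions or sequences were used.

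Of 37593 soybean probe sets, 28441 were above the background on at least 2 arrays and were tested on log2(signal + 16), which makes differences of dim genes smaller than their signal ratios. R 4.3.3, limma 3.58.1 (lmFit and eBayes with an intensity trend) and data.table version 1.17.8 were used, with 1 fit of all 17 groups. The cotyledon was set against the axis in a fit of 15 compartment means without the aleurone. The F test over compartments and the whole seed contrast were planned as tests. They are not reported as tests because they draw on the levels by which MFT was chosen. Contrasts within the embryo and within the coat keep their tests because the choice did not set those groups against each other. Their levels did enter the choice through the aleurone comparisons, so their p-values carry that limit. Folds come from means of the log2 values, so they can differ from the ratio of the mean signals, and an "at least" fold bounds that fold of log2 means. Unless most arrays on the dimmer side exceeded the background, signals under it were raised to it and the fold is written "at least". The log2 difference beside such a fold uses the signals as they are. The fits were tested on simulated data.

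MFT, the gene lists and the markers were chosen with earlier results of these data known. Named genes are the 10 with the highest r to MFT among genes whose symbol is more than a locus number, each read by its brightest probe set, and in each list at most 4 called genes with the largest absolute difference in each aleurone contrast, besides all tested members of the MFT family. Values of other genes of the short gibberellin, abscisic acid and regulator lists, and of single storage markers, were added after their values were seen. Same-numbered replicates of different groups did not deviate together: over 136 pairs of groups the correlation of their deviations ran from -0.09 to 0.15 (median 0.02) and exceeded 0.1 in 4. The numbers were therefore not used as pairs. Alternatives were other pseudocounts, scalings, filters, variance models, a covariate for the hybridization controls, and leaving out each array. Figures were drawn in Python 3.11.15 with matplotlib 3.10.9 and pandas 2.3.3.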

Additional observations from a re-analysis of the deposited data

How the results depend on the processing

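The calls for the axis vascular bundle and the cotyledon vascular bundle, each against its parenchyma, were kept under all alternatives run, with log2 differences of -5.58 to -3.61 and -2.60 to -2.40 for the 2 contrasts. With the replicate number as a replicate block these values were -4.60 (adjusted p = 4.6e-07) and -2.49 (adjusted p = 0.000132), and the block changed no call for MFT. The causes of the changes below were not tested. With pseudocount 64 palisade minus hourglass was -1.11 (adjusted p = 0.0591), the vascular difference between cotyledon and axis 1.96 (adjusted p = 0.0473) and the aleurone minus the maternal layers 5.97. With quantile normalization the axis epidermis minus parenchyma was -1.65 (adjusted p = 0.0511) and palisade minus hourglass -1.36 (adjusted p = 0.0629). Without a variance trend they were -1.75 (adjusted p = 0.0526) and -1.41 (adjusted p = 0.0646). With array weights the axis epidermis was at -1.75 (adjusted p = 0.0815), and with only the compared groups palisade minus hourglass was at -1.41 (adjusted p = 0.201). With the hybridization controls as a covariate the whole seed difference was 1.48, the axis epidermis -0.89, the abaxial minus adaxial cotyledon epidermis -0.14, the coat parenchyma minus the other layers -1.22 (adjusted p = 0.018) and the aleurone minus the maternal layers 6.98. With the compartment as a random block cotyledon minus axis was 1.76 and was called (adjusted p = 0.0442), and with a replicate block added it was not (adjusted p = 0.0504).

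With 1 array left out, where the lone array of a group is assumed to vary like the other groups, palisade minus hourglass ran from -2.32 to -0.50, the axis epidermis from -1.97 to -1.52, the vascular difference from 1.13 to 3.10, the coat parenchyma from -1.39 to -0.47, the cotyledon epidermis faces from -0.21 to 0.53 (-0.21 and -0.01 where the sign changed) and the cotyledon parenchyma faces from -0.01 to 0.32. Listed genes lower in the aleurone ran from 11 to 18 against the maternal layers and from 17 to 28 against the embryo. Named listed genes kept direction and call in 1435 of 1440 alternative values, and the other 5, given above, lost the call.

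Counts of called probe sets were within 1.5 times in 209 of 228 alternatives. Those outside, for the contrasts tested above, were, for cotyledon minus axis, 548 with the settings used, against 28 with the covariate, 831 with only the compared groups, 1229 and 1227 with the random block, and 207 to 359 without 1 of 6 compartments. The axis epidermis had 2164, against 1020 with array weights and 733 with only the compared groups, and the axis vascular bundle 2053, against 1294 and 790. Array weights gave 627 in place of 290 for the cotyledon parenchyma faces and 532 in place of 952 for the epidermal difference, and only the compared groups gave 964 in place of 1480 for the plumule and 572 in place of 1002 for the cotyledon epidermis faces. Other MFT probe sets were not tried, since the gene table ties 1 to the gene.

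With 2 arrays per group, and MFT near the background in the maternal layers, folds against those layers are lower bounds and their order is not resolved.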
